A study of Mus musculus with 6 samples.

Results

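Complement is a cascade of blood and tissue proteins that tags microbes, dying cells and immune complexes. It starts by the classical route (C1q, with the proteases C1r and C1s), by the lectin route (collectins and ficolins, with the MASP proteases) or by the alternative route (factors B and D, with properdin). All 3 routes meet at cleavage of C3, and regulators such as factor I and the C1 inhibitor hold the cascade back. The liver makes most circulating complement, while kidney tubule cells, macrophages, fibroblasts and fat cells also transcribe parts of it. C1q is a classical product of tissue macrophages.

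The genes examined were 9 complement components and regulators, chosen by name. They were the C1q chains C1qa, C1qb and C1qc, the components C4b, C2 and C3, factor B (Cfb), factor I (Cfi) and the C1 inhibitor Serping1. Probes were assigned to them through the RefSeq accession printed beside each probe in the scanner files. Together the 9 genes had 12 probes, and all 12 were well above background on all 6 arrays. All 9 were among the 17136 genes tested, of 23785 gene symbols with a probe. Where a gene had several probes, the brightest stood for it.

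Whole-kidney RNA was measured on 6 one-colour Agilent arrays, 3 labelled Pck1-CKO and 3 labelled WT. The Pck1-CKO mice were Pck1 flox/flox/γGT-Cre tg/+, in which a γGT-driven Cre transgene directs the knockout of Pck1, a gluconeogenic enzyme, to the renal proximal tubule. WT controls were littermates of the same age and sex. The labels name 3 control genotypes, Pck1 flox/+/γGT-Cre tg/+, then Pck1 flox/+ and also Pck1 flox/flox, without saying which of them each array held. All mice were on a C57BL/6J background and were killed at 32 weeks.

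The 75th percentile of the processed signal lay between 558.8 and 583.1 on Pck1-CKO arrays and between 528.9 and 581.9 on WT arrays. Between 37605 and 38485 probes were well above background on Pck1-CKO arrays, and between 37116 and 38708 on WT arrays. All values below are log2 of the processed signal minus the array's 75th percentile, so 0 marks the brightness of that percentile and 1 unit is a 2-fold step. Probe brightness also depends on the probe, so levels are compared between arrays and never between genes. Whether every array holds RNA of its own mouse is not stated. The p-values therefore rest on array-to-array spread, which may be technical, and 3 arrays per group limit the precision. Pck1-CKO and WT arrays lay in separate rows of the slide, so row and genotype cannot be told apart.

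Several checks bear on every result. Pck1 itself was not lower in Pck1-CKO arrays, with a log2 change of 0.56 ± 0.22 (SE, n = 3 each, limma adjusted p = 0.174 over all probes, unadjusted p = 0.0457). Its signals were 6.44, 6.60 and 6.90 in Pck1-CKO, against 6.29, 6.32 and 5.63 in WT. Every Pck1-CKO value thus lay above every WT value. Where the single Pck1 probe lies with respect to the floxed exons is not stated, so Pck1 does not check the labels. Kidney markers were bright on every array: the mean log2 signal over the 10 kidney identity genes was 5.55 to 5.60 in Pck1-CKO and 5.57 to 5.60 in WT. Among them, Aqp2 rose by 0.63 and Slc12a3 fell by 0.43 on the log2 scale. Array Pck1-CKO 1 stood apart in Ahsg and Hpx, genes typical of liver that were named after their values were seen. Its log2 signals were -0.98 for Ahsg and -0.25 for Hpx, against at most -5.44 and -4.99 on the other Pck1-CKO arrays and -5.03 and -4.80 on WT arrays. The low values lay near background, which Ahsg cleared on 2 Pck1-CKO and 2 WT arrays and Hpx on 3 and 2. The acute phase genes Saa1 and Saa2, described below, also stood apart on Pck1-CKO 1. Of the hepatocyte markers described below, Alb, Cyp2e1, Fga and Serpina1a were also highest on Pck1-CKO 1. Ttr, Tat, Apoc3, Apoa2, Fgb and Fgg were highest on other arrays. Array WT 1 had the lowest mean over the fat cell markers, though not the lowest value of each, and its Adipoq signal was -2.96 against -0.03 and -0.70 in WT 2 and WT 3. Complement genes that move with these arrays are therefore given with and without them.

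Of the 9 genes, C4b rose and no other passed the test in either direction. The test was limma, two-sided, with Benjamini-Hochberg adjustment over all 17136 genes and a threshold of 0.05. At that threshold 8.04% of all genes were called, 4.34% higher and 3.7% lower, so 1 call among 9 genes lies near the share of all genes. At an unadjusted p under 0.05, 4 of the 9 were higher and 1 was lower, beside 31.2% of all genes. Counts given below as before adjustment use that unadjusted threshold. Their log2 changes ran from -0.56 (C2) to 1.04 (C4b), with 8 positive and 1 negative and a median of 0.16, against a median of 0.0091 over all genes. The groups did not overlap in 5 of the 9 genes, C4b, C3, C2, C1qb and C1qc, beside 38.3% of all genes. In bulk tissue, fewer cells of a type and less RNA per cell cannot be told apart.

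**Figure D1:**
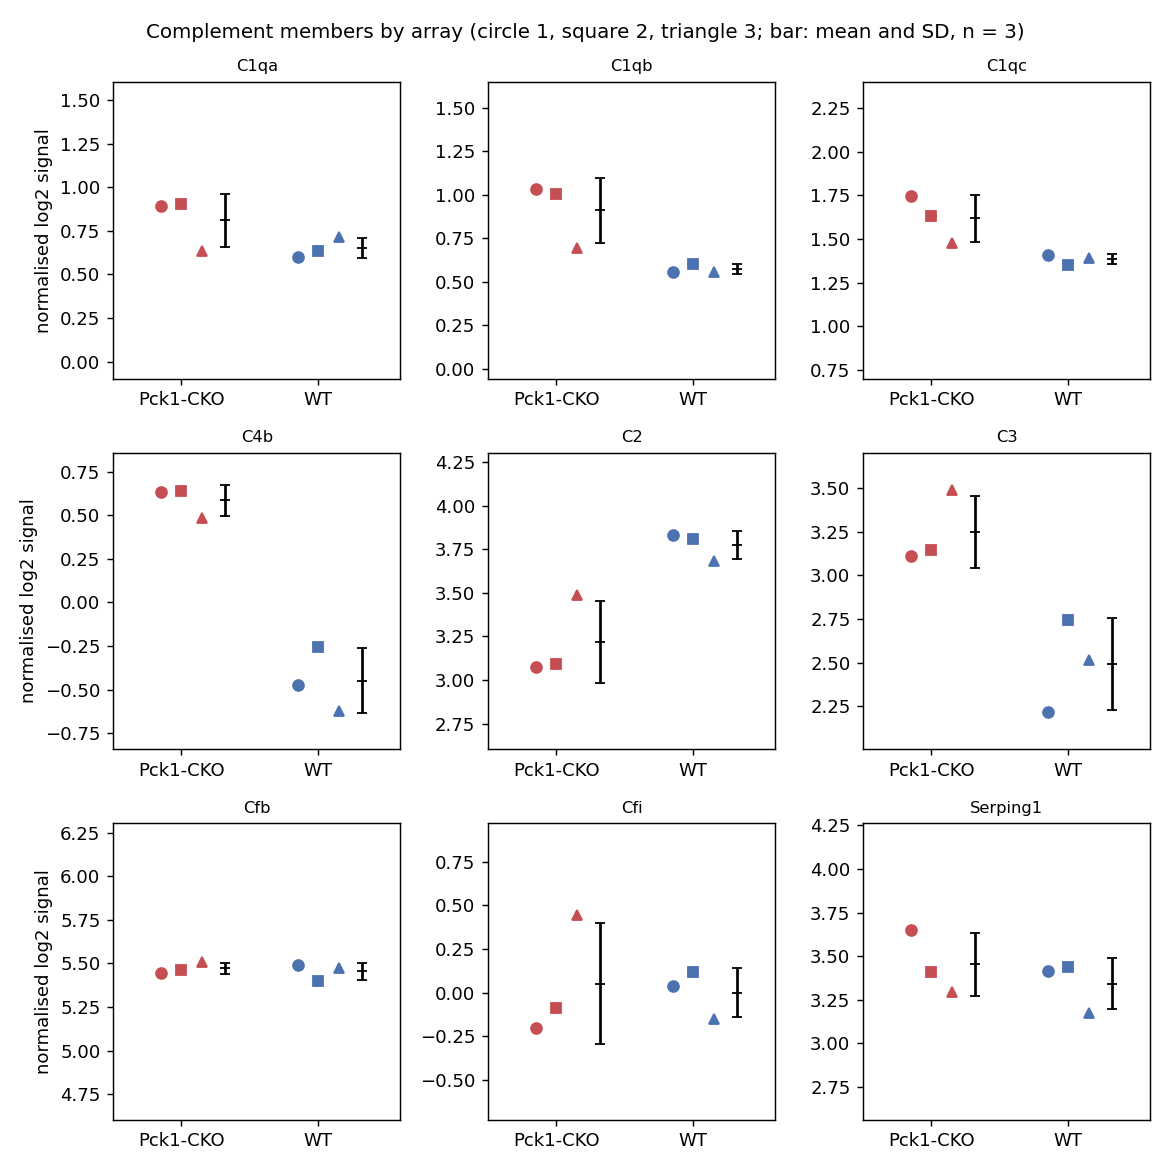
Normalised log2 signal (y axis, a span of 1.7 in every panel) of each complement gene on the 3 Pck1-CKO and 3 WT arrays, with the mean and SD beside the points. C4b shows the widest gap between genotypes, C2 is the gene that lies lower on all Pck1-CKO arrays, and Cfb lies between 5.40 and 5.51 throughout.

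C1q, the recognition protein of the classical route, is assembled from the products of C1qa, C1qb and C1qc, which stand next to each other on chromosome 4 in the order C1qb, C1qc, C1qa. C1qb had log2 signals of 1.03, 1.003 and 0.69 on Pck1-CKO arrays, against 0.56, 0.60 and 0.56 on WT arrays. Every Pck1-CKO value lay above every WT value, with Pck1-CKO 3 close to the WT level. The log2 change was 0.34 ± 0.10 (SE, n = 3 each, limma adjusted p = 0.0861), which did not pass. For C1qc the signals were 1.75, 1.63 and 1.48 in Pck1-CKO and 1.41, 1.35 and 1.39 in WT. Again the groups did not overlap and Pck1-CKO 3 was the lowest of its group. Its change was 0.24 ± 0.07 (limma adjusted p = 0.0996).

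C1qa had 0.89, 0.90 and 0.64 in Pck1-CKO arrays, against 0.60, 0.63 and 0.72 in WT arrays. Here the groups overlapped, since WT 3 lay above Pck1-CKO 3. The change of 0.16 had a 95% interval from -0.05 to 0.37 (limma adjusted p = 0.259). On all 3 genes Pck1-CKO 3 was nearest to WT, and without that array the log2 changes were 0.45 for C1qb, 0.31 for C1qc and 0.25 for C1qa. C1qb and C1qc then passed, with limma adjusted p = 0.0156 and 0.0418, and C1qa did not, with 0.0565. In that setting 8.93% of all genes were called. Without Pck1-CKO 1 the changes were 0.27, 0.17 and 0.12, with limma adjusted p = 0.197, 0.198 and 0.484, when 0.146% of all genes were called. None of the 3 genes passed without Pck1-CKO 2 or without any WT array. Among the 2 genes on either side of the C1q genes, looked at after the values of the C1q genes were seen, Ephb2 and Zbtb40 were tested. Zbtb40 rose by 0.28 (limma adjusted p = 0.0459), a change between those of C1qc and C1qb, and Ephb2 had 0.04.

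Macrophage markers did not share a direction. Of 18 such genes 17 were tested, and by limma 0 passed, while unadjusted p was under 0.05 for 3 higher and 5 lower genes. The mean log2 signal over the list was -0.53 to -0.45 in Pck1-CKO arrays and -0.54 to -0.40 in WT arrays. Adgre1, which encodes a surface marker of macrophages, had a change of -0.32 (limma adjusted p = 0.113), Cybb of the phagocyte oxidase -0.29 (0.0545), Ms4a7 -0.76 (0.0606) and the endotoxin co-receptor gene Cd14 0.20 (0.0831). All of Adgre1, Cybb, Ms4a7 and Cd14 separated the groups, the first 3 lower and Cd14 higher in Pck1-CKO. Among 10 genes tested from the lymphocyte list, Gzma fell by 1.15 and Cd79b by 0.44 on the log2 scale, and Cd3e changed by -0.08. Ptprc, a gene of leukocytes in general that stands on this list, changed by -0.17. The list's mean signal was -1.79 to -1.64 in Pck1-CKO and -1.38 to -1.28 in WT. The part of these cells in the C1q values was not tested.

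Promoter sequences are shown for C1qb, C1qc and C3, the 3 of the 9 genes that the RefSeq promoter table (GRCm38.p6) holds. Each runs 5′ to 3′ on the gene's strand, from 250 bases before the start to 50 after it. Capitals mark matches on either strand to 2 motifs chosen after the sequences were seen: AGGAAGT, a form bound by ETS factors such as PU.1 of myeloid cells, and TTNNGNAA, bound by C/EBP factors. The C1qb window is chr4:136886151-136886450, the C1qc window chr4:136892865-136893164 and the C3 window chr17:57228087-57228386, all on the minus strand.
C1qb: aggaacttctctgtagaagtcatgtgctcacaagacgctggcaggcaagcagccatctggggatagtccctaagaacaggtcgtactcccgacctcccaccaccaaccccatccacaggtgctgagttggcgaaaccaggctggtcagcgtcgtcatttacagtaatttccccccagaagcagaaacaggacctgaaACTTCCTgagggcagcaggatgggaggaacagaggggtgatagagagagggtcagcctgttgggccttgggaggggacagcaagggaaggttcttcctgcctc
C1qc: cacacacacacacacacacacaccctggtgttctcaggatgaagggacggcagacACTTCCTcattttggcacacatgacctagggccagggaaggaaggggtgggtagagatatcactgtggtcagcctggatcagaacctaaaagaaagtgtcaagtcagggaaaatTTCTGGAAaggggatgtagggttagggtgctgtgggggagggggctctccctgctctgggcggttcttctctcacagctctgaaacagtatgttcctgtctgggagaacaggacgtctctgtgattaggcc
C3: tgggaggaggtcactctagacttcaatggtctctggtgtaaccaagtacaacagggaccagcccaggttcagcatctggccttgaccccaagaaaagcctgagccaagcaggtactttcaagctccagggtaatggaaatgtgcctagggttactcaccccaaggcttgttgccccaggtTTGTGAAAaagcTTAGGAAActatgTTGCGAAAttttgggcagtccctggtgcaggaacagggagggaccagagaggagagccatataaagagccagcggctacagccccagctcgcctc
The ETS form occurred in the C1qb and C1qc windows, in each on the opposite strand, and in 9.35% of all 32851 promoter windows. The C/EBP form occurred in the C1qc and C3 windows and in 40.7% of all windows, and in C3 it matched at 3 places starting at -70, -58 and -45 from the start, the match at -45 on both strands. These matches describe letters, and no binding was measured here.

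C4b encodes complement C4, which the C1s and MASP proteases cleave on the way to the classical C3 convertase. Its log2 signals were 0.63, 0.64 and 0.48 on Pck1-CKO arrays, against -0.47, -0.25 and -0.62 on WT arrays. In linear units before scaling these were 868, 902 and 815 in Pck1-CKO, against 381, 470 and 378 in WT. All Pck1-CKO arrays were high, with a gap to WT wider than the spread within either group. C4b averaged 0.59 ± 0.09 in Pck1-CKO and -0.45 ± 0.19 in WT (SD, n = 3 each). The log2 change was 1.04 ± 0.11 (SE, n = 3 each, limma adjusted p = 0.0152), a 2.05-fold higher signal in Pck1-CKO with a 95% interval of 0.78 to 1.30 on the log2 scale.

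A second C4b probe, dimmer, gave a change of 0.95 ± 0.09. When every probe was tested on its own, both C4b probes passed, with limma adjusted p = 0.0252 for the brighter and 0.0222 for the dimmer. With arrays left out in turn the change of C4b stayed between 0.95 and 1.13. It was no longer past the threshold without Pck1-CKO 1 (limma adjusted p = 0.0713), Pck1-CKO 2 (0.0801) or WT 1 (0.0651), when 0.146%, 0.169% and 0.408% of all genes were called.

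C4a, which the annotation lists as a transcribed pseudogene in this strain, is a near-identical neighbour of C4b, and whether its probe also binds C4b RNA was not tested. C4a had -3.10, -3.67 and -3.63 in Pck1-CKO and -4.40, -4.28 and -4.78 in WT. It rose by 1.02 on the log2 scale (limma adjusted p = 0.0425). This probe was dim, and after normexp background correction the change was 0.30 and did not pass. Neither did it pass when any of the 6 arrays was left out, with changes from 0.83 to 1.12.

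C2, the protease that joins C4 in the classical convertase, lay lower in Pck1-CKO. Its signals were 3.08, 3.09 and 3.49 on Pck1-CKO arrays, against 3.83, 3.81 and 3.68 on WT arrays. Pck1-CKO 3 and WT 3 lay nearest to each other, and the groups did not overlap. The change was -0.56 ± 0.12 (SE, n = 3 each, 95% interval -0.86 to -0.25, limma adjusted p = 0.0533), just short of the threshold. Without Pck1-CKO 3 it was -0.69 with limma adjusted p = 0.0138 and passed, when 8.93% of all genes were called. Without Pck1-CKO 1 it was -0.48 and without WT 1 -0.53, and neither passed.

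C4b, C4a, Cfb and C2 lie in the major histocompatibility region of chromosome 17, with Cfb directly beside C2. From C4b to C2, with 2 genes added on each side, the annotation lists 13 protein-coding or transcribed pseudogene loci, and all 13 were tested. These neighbours were looked at after the values of the complement genes were seen. Of the 10 that are not among the 9 genes, C4a and Stk19 passed, Stk19 with a log2 change of 0.21, and all but C4a had changes between -0.20 and 0.21. C4b, C4a and C2 thus had the largest absolute changes of the 13, while Cfb between them had 0.016.

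C3 is the central component whose fragments coat targets. It had log2 signals of 3.11, 3.14 and 3.49 in Pck1-CKO arrays, against 2.22, 2.74 and 2.52 in WT arrays. All Pck1-CKO arrays were high, WT 1 was the lowest array and Pck1-CKO 3 the highest. In linear units before scaling the signals were 4838, 5112 and 6551 in Pck1-CKO, against 2457, 3748 and 3331 in WT. The change was 0.76 ± 0.17 (SE, n = 3 each, 95% interval 0.35 to 1.17, limma adjusted p = 0.0513), a 1.69-fold higher mean that fell just short of the threshold. The second C3 probe had a change of 0.57 ± 0.12 with limma adjusted p = 0.0562 over all probes. Without WT 1 the change of C3 was 0.62 and without Pck1-CKO 1 it was 0.82, and it passed under none of the 6 omissions (limma adjusted p from 0.0797 to 0.143).

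**Figure D2:**
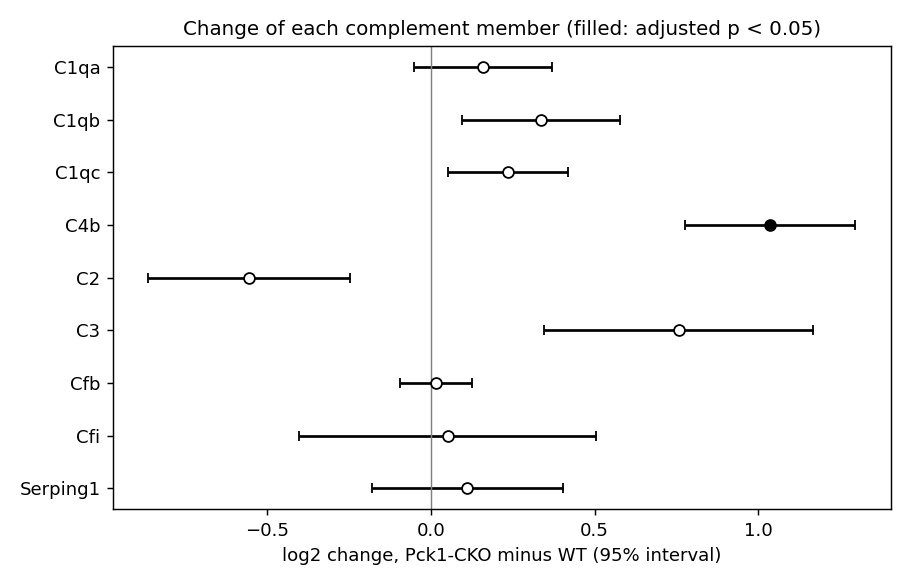
Log2 change (Pck1-CKO minus WT, x axis) of each complement gene with its 95% interval from limma, with filled points for an adjusted p under 0.05. C4b at 1.04 is the filled point. C3, C1qb and C1qc also have intervals above 0, C2 has an interval below 0, and the Cfb interval is the narrowest at -0.09 to 0.13.

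Cfb encodes factor B, the protease of the alternative C3 convertase. Its signals were 5.44, 5.46 and 5.51 in Pck1-CKO and 5.49, 5.40 and 5.47 in WT, and the groups overlapped closely. The change was 0.016 ± 0.045 with a 95% interval from -0.09 to 0.13 (limma adjusted p = 0.838). A second Cfb probe had 0.069 ± 0.047.

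Cfi encodes factor I, the protease that inactivates C3b and C4b. Its signals were -0.20, -0.09 and 0.45 in Pck1-CKO, against 0.04, 0.12 and -0.15 in WT. The groups overlapped, and Pck1-CKO 3 alone was above every WT array. The change of 0.05 had a wide 95% interval, from -0.40 to 0.50 (limma adjusted p = 0.875), and without Pck1-CKO 3 it was -0.15.

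Serping1 encodes the C1 inhibitor, which blocks C1r, C1s and the MASP proteases. Signals were 3.65, 3.41 and 3.29 in Pck1-CKO and 3.41, 3.44 and 3.17 in WT, with overlapping groups. Pck1-CKO 1, the array high in Ahsg and Hpx, held the highest value. Without that array the change was 0.011, against 0.11 with all arrays (95% interval -0.18 to 0.40, limma adjusted p = 0.557).

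**Figure D3:**
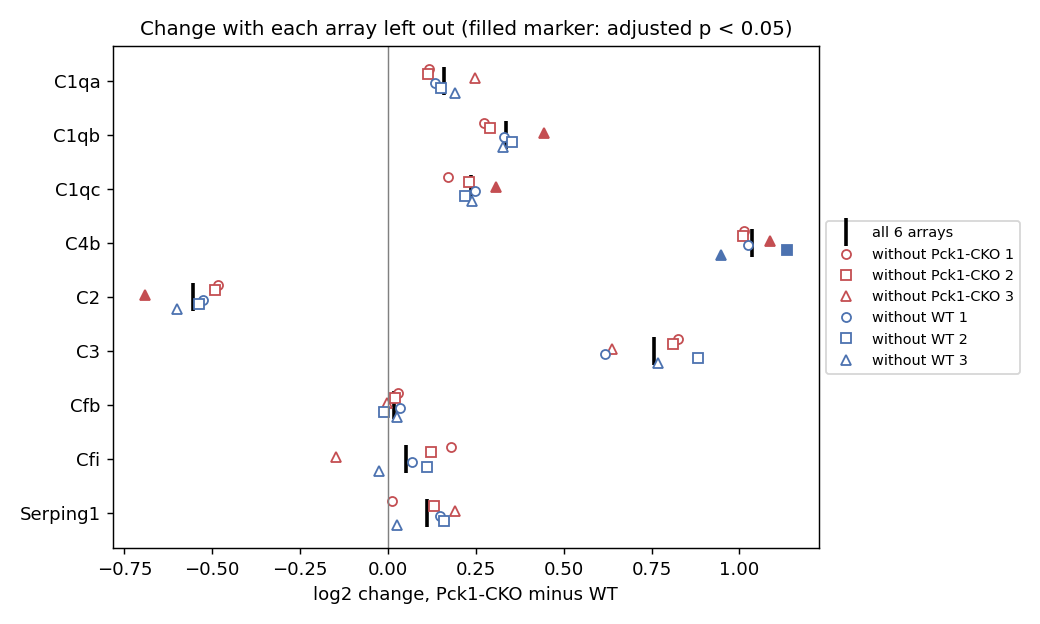
Log2 change (Pck1-CKO minus WT, x axis) of each complement gene with all 6 arrays (bar) and with each array left out (markers, filled where limma adjusted p was under 0.05). C4b stays between 0.95 and 1.13, C1qb, C1qc and C2 have 1 filled marker each, without Pck1-CKO 3, and Cfb and Cfi lie on both sides of 0.

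The rest of the cascade was read from the same fit. Of 47 other complement genes on a list drawn up by pathway role, 40 were tested, and 2 rose and 1 fell. Their median log2 change was 0.10, the groups did not overlap in 16 of the 40, and unadjusted p was under 0.05 for 8 higher and 4 lower genes. Over all genes 38.3% did not overlap and 31.2% had an unadjusted p under 0.05, so both counts lie near those shares. As with the 9 genes, 3 calls among 40 lie near the 8.04% of all genes.

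Among starters of the classical and lectin routes, 12 of 14 genes were tested. Mbl2, a mannose-binding lectin that starts the lectin route, fell by 1.39 on the log2 scale (SE 0.18, limma adjusted p = 0.0244). Its signals were -2.25, -2.48 and -1.75 in Pck1-CKO arrays, against -0.76, -0.82 and -0.72 in WT arrays. WT arrays were close together and all Pck1-CKO arrays lay well below them. The change was -1.34 without Pck1-CKO 1, -1.23 without Pck1-CKO 2, -1.39 without WT 1 and -1.42 without WT 2, and it did not pass in these 4 cases, with limma adjusted p from 0.0801 to 0.0888. Fcna, a ficolin gene, had a change of 1.94 (limma adjusted p = 0.109) but cleared the background level on 1 WT array of 3. Its change was 0.33 after normexp background correction and 1.39 to 2.59 with arrays left out, and it passed in none of these.

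In the alternative route Cfp, which encodes properdin, rose. Properdin stabilises the convertase formed with factor B. Cfp signals were 0.69, 0.71 and 0.63 in Pck1-CKO, against 0.25, 0.28 and 0.25 in WT. Both groups were tight and far apart, and the change was 0.41 ± 0.04 (SE, n = 3 each, limma adjusted p = 0.0152). A dimmer Cfp probe had 0.64 ± 0.10. Without Pck1-CKO 1, Pck1-CKO 2, WT 1 or WT 2 the change of Cfp lay between 0.40 and 0.42, with limma adjusted p from 0.066 to 0.0801, and did not pass.

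Cfd encodes factor D, also called adipsin, the protease that cleaves factor B and a product of fat cells. It had 5.14, 4.97 and 5.80 in Pck1-CKO, against 0.15, 3.18 and 2.90 in WT. WT 1 was far below the other WT arrays and Pck1-CKO 3 was the highest. The change of 3.22 ± 0.83 did not pass (limma adjusted p = 0.0681), and without WT 1 it was 2.26.

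Terminal pathway genes, which form the membrane attack complex, were tested for 5 of 7, and 0 passed in limma, with 1 higher and 0 lower before adjustment. C8g had the lowest p, with 0.24 (limma adjusted p = 0.141), and the 5 changes lay between 0.09 and 0.36. Regulators other than Cfi and Serping1 were tested for 13 of 15, and 0 passed in limma, with 3 higher and 1 lower before adjustment. Cd59a, which encodes a surface inhibitor of the membrane attack complex, had the lowest p, with 0.16 (limma adjusted p = 0.0531). Receptors were tested for 8 of 9 and 0 passed in limma, with 0 higher and 1 lower before adjustment. Itgam, a chain of complement receptor 3, had -0.36 on its brightest probe (limma adjusted p = 0.0677) and -0.20 on a much dimmer probe.

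**Figure D4:**
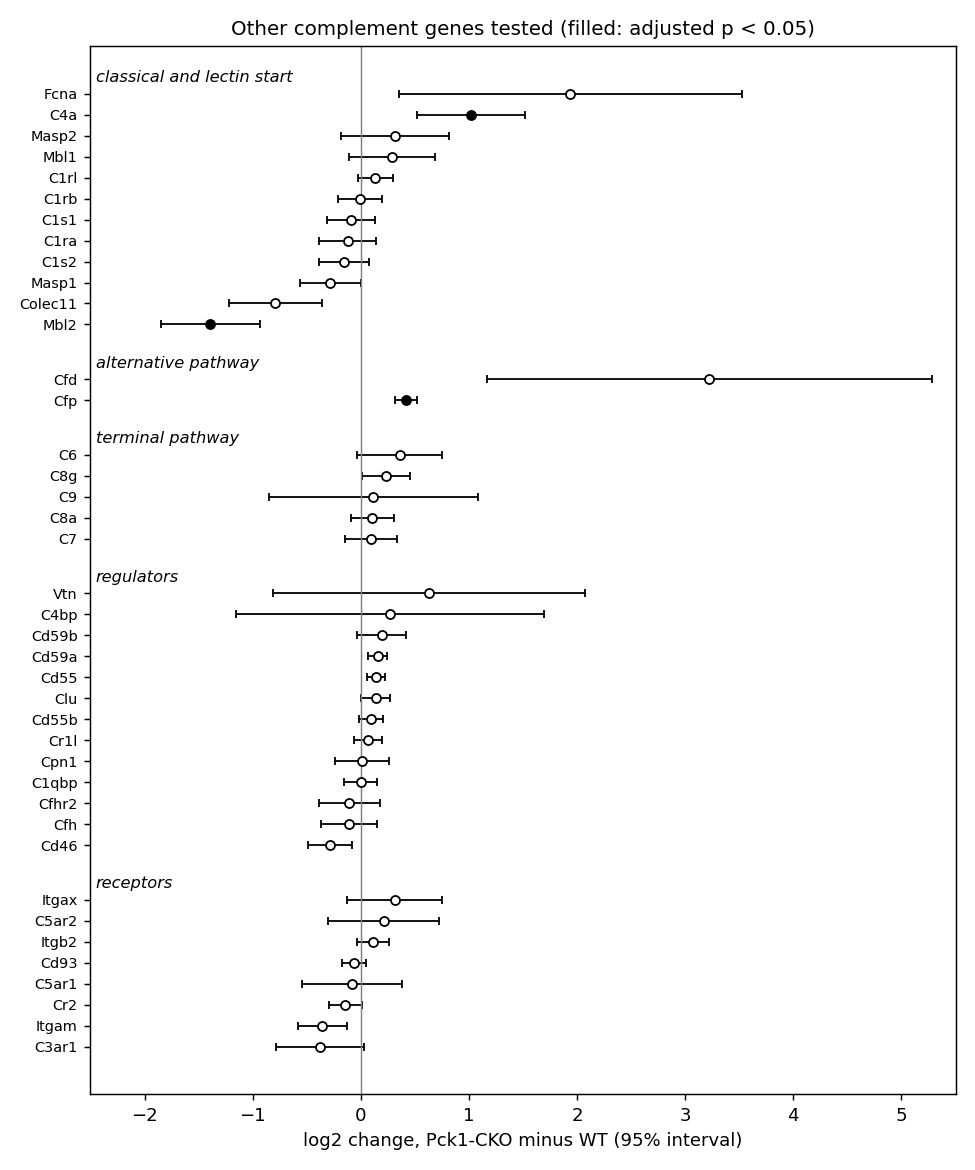
Log2 change (Pck1-CKO minus WT, x axis) with 95% intervals for the 40 other complement genes tested, grouped by role, with filled points for an adjusted p under 0.05. C4a and Cfp are the filled points right of 0, Mbl2 the filled point left of it, and Cfd has the widest interval, 1.17 to 5.28.

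Markers of cells that can make complement differed between groups and arrays. Of 12 adipocyte markers, 7 rose and 0 fell, beside 4.34% and 3.7% of all genes. Pparg rose by 0.98, Fabp4 by 1.25 and Ucp1 by 5.23 on the log2 scale, while Adipoq had 2.94 (limma adjusted p = 0.0781). The mean log2 signal over the 12 was 1.71, 1.59 and 2.13 in Pck1-CKO, against -1.81, -0.07 and -0.20 in WT. The array with the highest mean, Pck1-CKO 3, and the array with the lowest, WT 1, were also the highest and the lowest for C3. Without Pck1-CKO 3 the change of C3 was 0.64, and without WT 1 it was 0.62. C4b did not follow that order, since its lowest array was WT 3 and Pck1-CKO 3 the lowest of its group. The part of fat cell RNA in these values was not tested.

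Of 12 hepatocyte markers 11 were tested, and 2 rose, Serpina1a by 0.91 and Ttr by 1.20, beside 4.34% of all genes called higher. Both were high on every Pck1-CKO array and not on Pck1-CKO 1 alone. Serpina1a had 6.41, 6.37 and 5.87 in Pck1-CKO, against 5.28, 5.22 and 5.42 in WT. Ttr had 3.52, 3.61 and 3.30 in Pck1-CKO, against 2.04, 2.07 and 2.74 in WT. Cyp2e1 had 0.46 and Alb 0.34, and neither passed. Over the 6 arrays Cyp2e1 ran from 7.14 to 7.90 and Alb from -0.99 to 0.24. Whether kidney cells or liver cells made the RNA of these markers was not tested. Of the 11 changes 9 were positive and 2 negative, and before adjustment 3 genes were higher and 1 was lower. The negative ones, named after their values were seen, were the fibrinogen genes Fgb with -1.07 and Fgg with -0.23. The list's mean was 1.74, 0.83 and 0.997 in Pck1-CKO, against 0.63, 0.85 and 1.13 in WT. In the list of acute phase and injury genes 3 of 16 rose, beside 4.34% of all genes called higher. These were Hp by 3.63, Cxcl1 by 0.72 and Ccl2 by 0.91. The mean of this list was -0.76, -2.11 and -1.92 in Pck1-CKO against -3.17, -2.80 and -2.89 in WT. Pck1-CKO 1 was the highest array of both lists. In the second list, Saa2 had 2.25 and Saa1 1.67 on that array, against at most -3.92 and -1.77 on the others. Saa2 cleared background on 3 Pck1-CKO and 0 WT arrays. Both Saa genes were named after their values were seen. Of the 9 complement genes, C1qb, C1qc and Serping1 were highest on that array, whereas C3, C2, Cfb and Cfi were each lowest of their group there. The part of liver-type RNA in these values was not tested.

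Genes of the interferon response, a signal known to raise C2, Cfb, C4b and Serping1 in many cells, lay lower in Pck1-CKO. Of 22, 21 were tested, 5 fell and 0 rose, and all 21 changes were negative with a median of -0.27. Over all genes 3.7% fell. Irf1 fell by 0.27, Ifit1 by 0.42 and Zbp1 by 0.48. The mean was 0.89, 0.88 and 0.96 in Pck1-CKO, against 1.27, 1.29 and 1.05 in WT. WT 3 was the lowest WT array and Pck1-CKO 3 the highest of its group, both here and for C2. The other complement genes named above did not share that order or a fall. C4b changed by 1.04 and Serping1 by 0.11, and for both Pck1-CKO 3 was the lowest of its group, with WT 3 the lowest WT array. Cfb changed by 0.016, with WT 2 its lowest WT array and Pck1-CKO 3 the highest of its group. Whether the interferon list and any of these genes are linked was not tested.

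Fibroblast markers gave 0 calls of 10 in limma, with 0 higher and 1 lower before adjustment. Pdgfra had a change of -0.35, Col1a2 -0.25, Dcn 0.26 and Col1a1 -0.10, and list means were 0.24 to 0.45 in Pck1-CKO and 0.09 to 0.55 in WT. Endothelial markers gave 0 of 8 in limma, with 0 higher and 2 lower before adjustment. Plvap had -0.12, Emcn -0.14, Kdr -0.11 and Pecam1 -0.02, and list means were 1.79 to 1.95 in Pck1-CKO and 1.89 to 1.99 in WT.

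**Figure D5:**
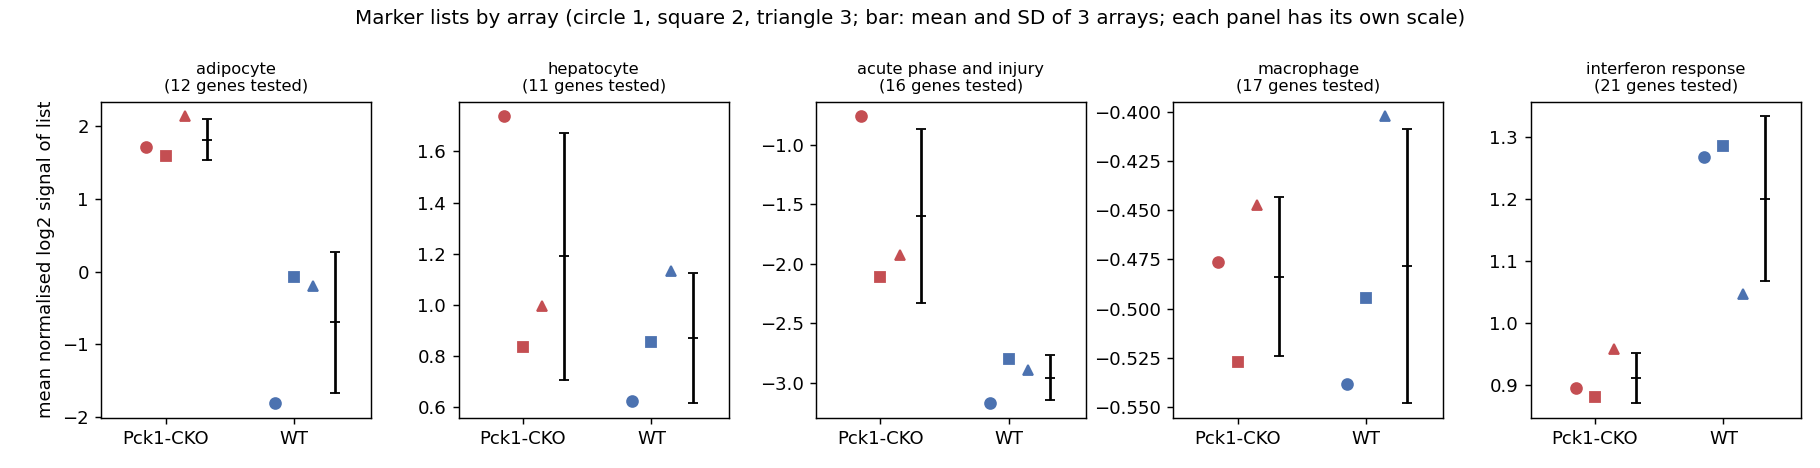
Mean normalised log2 signal (y axis, scaled for each panel) over the tested genes of 5 marker lists on the 3 Pck1-CKO and 3 WT arrays, with the mean and SD of the arrays. Adipocyte markers lie at 1.59 or above in Pck1-CKO and at -0.07 or below in WT, Pck1-CKO 1 is highest for hepatocyte and acute phase genes, macrophage means overlap, and interferon genes lie at 0.96 or below in Pck1-CKO.

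The genes whose pattern was most like that of the 3 complement genes with the largest changes were found by Pearson correlation over the 6 arrays among 17135 other tested genes. For C4b these were Sltm, Uckl1 and Capn7 (r = 0.999, 0.996 and 0.996). For C3 they were Tfe3, Ccl11 and Cetn2 (r = 0.997, 0.993 and 0.993). For C2 they were Rps3a1, Phf20 and Lrrfip1 (r = 0.997 for each). With 6 arrays in 2 groups such values are a description of these arrays. Among these neighbours Ccl11, an eosinophil-attracting chemokine gene, had the largest change, 1.34 (limma adjusted p = 0.0548).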

How the data were processed

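The authors deposited scanner intensity values, written by Feature Extraction (Agilent, version 10.7.1.1) per the file headers, which also hold background-subtracted signals and detrending fits. Their deposited value table is a linear ratio that equals each probe's processed signal divided by 1 factor per array, as checked on the files, so its scale and direction are settled. Its column medians were 0.097 to 0.099 for Pck1-CKO and 0.102 to 0.104 for WT. No source used here names the tool of that scaling.

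Spots flagged as outliers (46 to 94 per array) were left out, 0 spots were saturated, log2 values of a probe's spots were averaged and the array's 75th percentile was subtracted. Gene symbols came from a GRCm38.p6 RefSeq table by unversioned accession. The array design is annotated on another build, so coordinates are printed for the RefSeq promoters alone. A symbol was found for 34675 of 56605 probes. A probe was kept if well above background on 3 or more arrays. The brightest stood for a gene.

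The test was limma 3.58.1 (lmFit, eBayes; R 4.3.3) without covariates, and the code was tested on simulated data. Errors of changes are standard errors and 95% intervals are from this fit. Alternatives covered scaling, background correction (normexp, offset 50, on median signals, the column the files hold), source of values, filter, probe choice, array weights, outlier flags, the variance trend, leaving out arrays and a replicate block. The complement genes, lists and alternatives were chosen with earlier results of these data known. The rule for naming genes took the 9 genes, other complement genes that passed, changed by at least 1 on the log2 scale or had the lowest p of their list, and 3 genes plus a defining marker of each other list. A kidney gene that this rule names is not reported here. Replicate numbers were not treated as pairs, because deviations of same-numbered arrays correlated by -0.00097, -0.11 and -0.023.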

Additional observations from a re-analysis of the deposited data

How the results depend on the processing

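Of the 9 complement genes, 1 rose and 0 fell (before adjustment, limma had 4 higher and 1 lower). Over all genes 743 rose and 634 fell. Median centring gave 4 and 1 of the 9, and 2434 and 560 of all genes. Normexp gave 2 and 1 (1005 and 908 of all genes), a filter on all 6 arrays 2 and 1 (955 and 794), eBayes with trend 4 and 1 (1689 and 1133 of all genes), and array weights 5 and 1 (3285 and 2614). Without a filter 61 and 81 of all genes passed, and 485 rose with every probe tested on its own. Among other complement genes, 2 rose and 1 fell. The counts were 5 and 2 with median centring, 1 and 0 without a filter, 5 and 3 with trend, and 12 and 6 with array weights. With every probe on its own 1 rose, 4 fell with normexp and 2 fell with the filter on all arrays. With arrays left out in turn, 0 to 3 of the 9 rose and 0 to 1 fell, 0 to 4 and 0 to 2 of the other complement genes, and 16 to 779 and 9 to 806 of all genes. Fitting the replicate number as a block gave 0 of the 9, 0 and 0 of the other complement genes and 3 higher and 1 lower of all genes, with C4b at 1.04 (limma adjusted p = 0.069). The cause of these shifts was not tested.

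C4b kept its direction under all 18 alternatives, from 0.94 to 1.13, and passed under 14. C3 ranged from 0.61 to 0.88 and passed under 5, and C2 from -0.69 to -0.48 and passed under 6. Cfb had -0.0035 after quantile normalization and -0.012 to 0.034 with arrays left out. Cfi had -0.12 with array weights and -0.15 to 0.18 with arrays left out. C1qa, C1qb, C1qc and Serping1 kept their direction under all 18. Signal over background was no limit for the 9 genes, all of which were well above background on every array.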
